A study of Mus musculus with 60 samples.

Results

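The genotype comparison at 2 h of hepatocyte growth factor (HGF) set primary mouse hepatocytes without a functional Met gene (KO) against Cre control hepatocytes (WT). The arrays were taken by their titles, as all knock-out and all Cre control arrays of the treated 2 h time, which gave 12 of the 60 arrays of the series and 6 of its 30 replicates. KO cells were labelled Alb-Cre +/-; Met Fl/Fl on a mixed 129SV/C57BL6 strain. WT cells were labelled Cre control on a C57BL strain, and a genotype field naming a heterozygous Cre transgene stands only on some untreated WT arrays. Strain and genotype thus changed together, and their parts in any difference below cannot be told apart. All cells came from livers of adult males aged 9 to 10 weeks, were plated, moved to serum-free medium and treated on the next day with recombinant human HGF at 50 ng/ml (another label field gives 50 nM). The albumin promoter drives Cre in hepatocytes, so other liver cells carried over into a culture would keep Met. The labels describe 3 cultures from 3 mice in each group. KO and WT replicates that share a number came from different animals.

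HGF is a secreted growth factor that binds Met, a receptor tyrosine kinase on hepatocytes. The activated receptor recruits the adaptor Gab1 and turns on the ERK and PI3 kinase cascades, which act within hours on immediate early transcription factors, on growth factors of the EGF receptor family and on the phosphatases that switch ERK off again. In liver the pathway is known for its part in regeneration, cell survival and cell movement, and growth signals are known to lower many differentiated functions of cultured hepatocytes.

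Each replicate was read on 2 arrays with exchanged dyes against a pool of WT hepatocyte RNA, and a value here is the mean of both log2 ratios after each array was centred on its median. Values were read as sample over reference, since the labels do not state the numerator, and all signs below would turn together if it were the reference. The 12 arrays held values for 17356 to 21005 of 21997 probes, with SDs of 0.287 to 0.474 across probes. The SDs of the arrays of the other times ran from 0.297 to 1.39. The main fit did not scale arrays, so sizes of differences at 2 h and at other times do not rest on a common spread. The dyes left a large common component: the Cy5 and Cy3 arrays of 1 replicate correlated at -0.133 to 0.148 across probes, whereas the KO minus WT difference on Cy5 arrays correlated with that on Cy3 arrays at 0.403 (13492 probes with all 12 values). The array carried 224 tested probes annotated as Gapdh, a glycolytic enzyme. Their KO minus WT differences had a median of 0.20 and an SD of 0.09 across probes and ran from -0.04 to 0.51, with 222 of them above 0 and none called (0 of 224). All WT arrays at 2 h carry 1 run of array numbers and those of KO replicates 1 and 2 the next, while KO replicate 3 belongs to another set of arrays. Array run and genotype changed together, so their parts in the KO minus WT difference cannot be told apart.

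The probe for Met itself gave overlapping values in the 2 genotypes. Its log2 ratios were 0.03, -0.05 and 0.29 in KO and -0.17, 0.04 and -0.04 in WT. The difference was 0.15 ± 0.17 (standard error from limma; adjusted p = 0.988), and which exon the probe reads was not examined. Alb, the major plasma protein made by hepatocytes, differed by 0.02 ± 0.09 (adjusted p = 1), and none of 33 measured hepatocyte secreted and surface markers was called (0 of 33). KO lay wholly above WT for 11 of these markers (33.3%, beside 15.9% of 12375 genes) and below for 3 (9.09%, beside 11.5%), 22 had a positive difference, and their median was 0.12. Replicates of 1 genotype resembled each other more than they resembled the other genotype. Across probes they correlated at 0.437 to 0.615 within KO, at 0.586 to 0.625 within WT and at 0.223 to 0.426 between KO and WT.

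Of 18397 tested probes, limma called 65 (0.353%) with a threshold of 0.05 on the p adjusted by Benjamini and Hochberg, 48 higher in KO (0.261%) and 17 lower (0.0924%). Of these, 57 had 1 gene symbol, 44 higher and 13 lower. The genes higher in KO included glutathione transferases, aldehyde dehydrogenases, the acyltransferases Crot and Baat and the plasma proteins F10, Mbl1 and Lrg1. The genes lower in KO included the cystine transporter Slc7a11, the neuronal tubulin Tubb3 and probes for 3 small nucleolar RNAs. Differences were modest, with a median size of 0.88 on the log2 scale among the called probes, 23 over 2-fold (16 higher and 7 lower) and 4 over 4-fold. In WT, 44 of the 48 probes called higher in KO lay below the reference pool and 15 of the 17 called lower lay above it. In KO, 40 of the 48 lay above the pool and 14 of the 17 below it. Choosing probes by KO minus WT favours such opposite sides. The WT mean was the farther from 0 for 39 of the 65. Every called probe had KO replicates on 1 side of all WT replicates, but so had 26.8% of all tested probes, and 1455 probes reached an unadjusted p under 0.05. When each array was also scaled to a common spread, 1117 probes were called, 688 higher and 429 lower. The count was 48 without KO replicate 1, 30 without KO replicate 2 and 41 without KO replicate 3. It was 39 without WT replicate 1, 29 without WT replicate 2 and 31 without WT replicate 3.

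**Figure D1:**
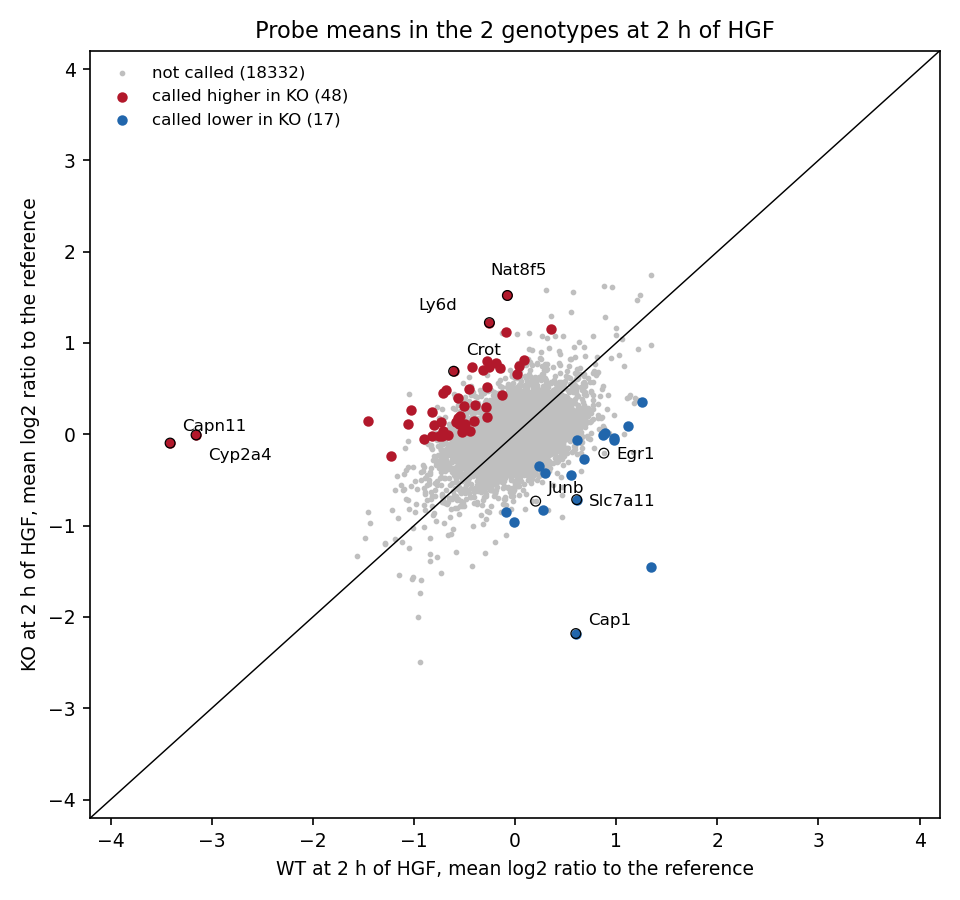
Mean log2 ratio to the reference pool in WT (horizontal) and KO (vertical) at 2 h of HGF, 1 point for each of 18397 tested probes, with the line of equal values. The 48 probes called higher in KO (red) lie above the line, mostly left of 0 and mostly at a KO mean above 0. Capn11 and Cyp2a4 stand apart at a WT mean of -3.41 and -3.16. Circles mark the genes named.

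Of the 57 called genes, 20 stayed called in each of the 6 fits without 1 replicate in which they could be tested. These were Capn11, Cyp2a4, Nat8f5, Ly6d, Crot, Lamc3, Tinag, Gstm6, Gas2, Mpc1, Gsta3, Olfr29-ps1, 6530409C15Rik, Pop4 and Fshb among the higher genes and Cap1, Snora75, 5730405O15Rik, Bbs10 and Tubb3 among the lower ones. Of these 20, 15 could be tested in all 6 fits, and Cap1, Gas2, Snora75 and 5730405O15Rik in 4. Lamc3 was tested in 2, each without a replicate that had no value for it, so its difference could not change. At the other end, 11 genes lost the call in all 6: Slc7a11, Snora81, Fgd6, Gstm2, Hgd, Lrg1, Robo1, Abca3, Dpp4, Cux1 and 1810007C17Rik. For genes that lost it in any of them and are described one by one below, the highest adjusted p without 1 replicate is given as the leave-out maximum.

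The 2 genes with the highest differences were Capn11, a calpain protease best known from testis, and Cyp2a4, a steroid-hydroxylating cytochrome P450 of the liver. Capn11 had log2 ratios of -0.02, -0.25 and -0.01 in KO and -3.43, -3.33 and -3.47 in WT, a 9.96-fold difference (3.32 ± 0.32, adjusted p = 8.37e-06). Cyp2a4 was at -0.09, 0.11 and -0.04 in KO and at -3.11, -3.30 and -3.06 in WT, an 8.87-fold difference (3.15 ± 0.35, adjusted p = 2.23e-05). Both differences lay in the WT cells, since KO stayed at the level of the pool. WT had not been low at 0.5 h, with Capn11 at 0.16, 0.17 and 0.43 and Cyp2a4 at 0.75, 1.23 and 1.31. In WT at 12 h, Capn11 lay at -1.01, -0.89 and -0.63 and Cyp2a4 at -1.04, -1.10 and -0.78. WT was low again at 24 h, with Capn11 at -2.75 and -0.64 (2 values) and Cyp2a4 at -2.90, -1.67 and -2.82. The values of both probes lay close together at 2 h and 12 h, including KO replicates at 12 h (Capn11 0.54, -0.32 and 0.01, Cyp2a4 0.65, -0.47 and 0.12). They lay apart in untreated WT, at -0.02, 0.02 and 0.17 for Capn11 and -0.28, 1.25 and -0.51 for Cyp2a4, and in WT replicate 2 at 24 h. Whether the Capn11 probe reads transcripts of the Cyp2a family was not tested. Cyp2a5, a coumarin-hydroxylating P450 that is nearly identical in sequence to Cyp2a4, did not share the 2 h pattern. Its probe was at 0.12 and 0.24 in KO and at 0.05 and 0.02 in WT (2 replicates each, adjusted p = 1), although it was low in WT at 12 h (-1.02, -0.93 and -0.67) and at 24 h (-1.86, -2.50 and -3.15). Since these paralogs can cross-hybridise, the gene behind each probe is uncertain.

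Cap1, which codes for a protein that binds actin monomers and speeds filament turnover, had the lowest difference of any gene with a symbol. It was at -2.23 and -2.13 in KO, where replicate 3 had no value on both arrays, and at 0.55, 0.67 and 0.59 in WT (-2.78 ± 0.47, adjusted p = 0.00434). Single KO replicates were also low untreated (-1.73) and at 24 h (-1.82), while the other KO replicates lay between -0.04 and 0.72 at the times other than 2 h. One probe with no gene symbol was high only in WT at 2 h. It read 1.00, 1.49 and 1.52 there, -1.53, -0.99 and -1.82 in KO at 2 h and -2.15 to -0.95 in the other groups at every time. Prelid2, which codes for a mitochondrial protein of the PRELI family, showed the reverse. At 2 h it was at -0.26, -0.23 and -0.24 in KO and -0.23, -0.09 and -0.11 in WT (-0.10 ± 0.25, adjusted p = 1), whereas KO had exceeded WT by 1.90 ± 0.25 untreated and by 1.95 ± 0.25 at 0.5 h. The Prelid2 difference was 2.06 at 12 h and 1.15 at 24 h. Untreated KO was at 0.93, 0.84 and -0.08 and WT at -1.48, -1.57 and -0.95. At 24 h KO was at 0.33, 0.56 and -0.48 and WT at -1.46, -0.54 and -1.04. At both times KO replicate 3, the lowest KO value, belongs to another set of arrays than KO replicates 1 and 2. The part of the array set in the Prelid2 pattern was not tested.

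**Figure D2:**
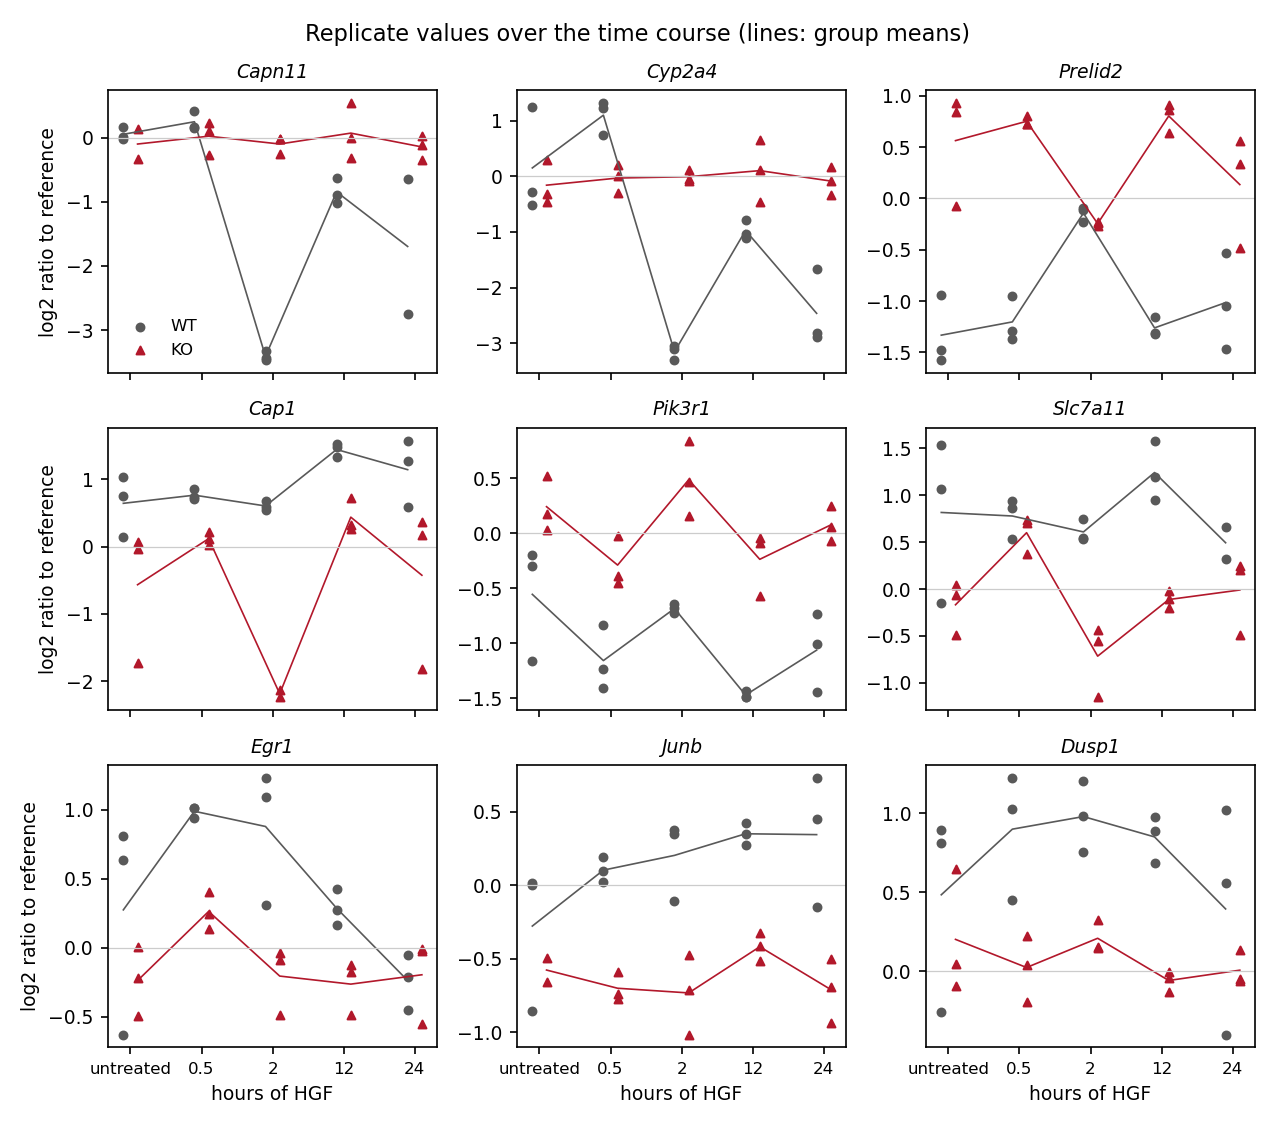
Log2 ratios of single replicates (grey circles WT, red triangles KO) and group means (lines) of 9 genes, untreated and after 0.5, 2, 12 and 24 h of HGF. Capn11 and Cyp2a4 in WT lie lowest at 2 h, KO is low for Cap1 at 2 h, and the genotype means of Prelid2 lie 0.10 apart at 2 h.

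Among 25 measured genes of the Met receptor axis (ligand, activating proteases, adaptors and PI3 kinase subunits), 1 was called higher and none lower, against 0.347% and 0.105% of 12375 genes. The called gene was Pik3r1, the regulatory subunit that holds PI3 kinase at receptors. Its log2 ratios were 0.46, 0.15 and 0.84 in KO and -0.64, -0.73 and -0.68 in WT, a difference of 1.17 ± 0.23 (adjusted p = 0.0155, leave-out maximum 0.123). The difference had the same sign at every time: 0.80 untreated, 0.87 at 0.5 h, 1.23 at 12 h and 1.14 at 24 h. The adaptor Gab1 differed by -0.34 ± 0.15 (adjusted p = 0.557). Hgfac, a serine protease that activates the HGF precursor, differed by 0.57 ± 0.17 (n = 2 and 3, adjusted p = 0.179). Hepsin (Hpn), a membrane protease counted with pericellular proteolysis, differed by 0.71 ± 0.23 (n = 2 and 2, adjusted p = 0.261). All KO replicates lay above all WT replicates for 5 of the 25 genes and below for 4, which is 20% and 16% beside 15.9% and 11.5% of all genes.

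Of 32 measured immediate early genes, transcription factors and regulators switched on within minutes to hours by growth signals, none was called (0 higher, 0 lower). Their KO replicates lay below all WT replicates for 10 of 32 (31.2%, beside 11.5% of all genes) and above for none (beside 15.9%). Of the 32, 11 had a positive difference. The median difference was -0.11, at -0.14 on the Cy5 arrays and 0.01 on the Cy3 arrays, beside 0.01 over all genes. Egr1, a zinc finger factor induced by ERK, was at -0.04, -0.09 and -0.49 in KO and at 0.31, 1.23 and 1.09 in WT. The groups did not overlap, and the difference of -1.08 ± 0.27 did not pass (adjusted p = 0.0802). Junb, a subunit of the AP-1 factor, was at -0.47, -1.01 and -0.71 in KO and at -0.11, 0.37 and 0.35 in WT, with a difference of -0.94 ± 0.21 that lay just outside the threshold (adjusted p = 0.0511). Junb passed without KO replicate 1 (adjusted p = 0.0454) and without WT replicate 1 (adjusted p = 0.0431), and Egr1 without WT replicate 1 (adjusted p = 0.0289). Over the 6 fits without 1 replicate, the adjusted p of Junb reached 0.264 and that of Egr1 0.345. The AP-1 subunit Fosb was at 0.53 and 0.22 in KO and at 1.56 and 0.87 in WT (-0.84 ± 0.33, n = 2 and 2, adjusted p = 0.48). Ier2, a short-lived nuclear regulator, was at 0.06, 0.10 and -0.30 in KO and 0.24, 0.92 and 1.06 in WT (-0.79 ± 0.45, adjusted p = 0.742). For Fosb and Ier2 the groups also lay apart, by margins smaller than the spread within WT. Jun differed by -0.46 ± 0.20 (adjusted p = 0.537). The KO and WT values of Fos, Fosl1, Myc, Atf3 and Jund overlapped, with differences from -0.31 to 0.20.

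Genes of EGF receptor ligands and ERK feedback gave no call either (0 of 20). KO lay wholly below WT for 5 (25.0%, beside 11.5% of all genes) and above for 1 (5.0%, beside 15.9%). Dusp1, the phosphatase that dephosphorylates MAP kinases in the nucleus, was at 0.33, 0.15 and 0.15 in KO and at 0.75, 1.21 and 0.98 in WT, a difference of -0.77 ± 0.29 (adjusted p = 0.394). The WT values of Dusp1 were well clear of KO, also at 12 h (0.89, 0.69 and 0.98 against -0.04, -0.13 and 0.00). At 0.5 h they were apart from KO too (0.45, 1.025 and 1.225 against 0.04, -0.19 and 0.22). They overlapped untreated (0.81, 0.90 and -0.26 against 0.05, -0.09 and 0.65) and at 24 h (1.02, 0.56 and -0.40 against -0.05, 0.13 and -0.07). Hbegf, a membrane-anchored ligand of the EGF receptor, differed by -0.37 ± 0.17 at 2 h (n = 3 and 2, adjusted p = 0.596) and by -1.34 at 0.5 h. The cytoplasmic ERK phosphatase Dusp6 (0.01 ± 0.26) and the inhibitor Spry4 (0.01 ± 0.25) had overlapping values. Spry2, a related inhibitor, differed by -0.34 ± 0.30 (n = 2 and 3, adjusted p = 0.937). Other genes often read as responses to Met did not pass either: the urokinase Plau (0.34) and its receptor Plaur (-0.18), the cyclin Ccnd1 (-0.12), the feedback inhibitor Socs3 (0.10), the haem oxygenase Hmox1 (-0.13) and the transcription factor Klf6 (-0.29).

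The stretch before the Dusp1 start is shown because Dusp1 is an early gene with separate groups and a well known cyclic AMP response element. RefSeq's table (GRCm38.p6) places the 250 bases before the start at chr17:26508473-26508722, minus strand. Capitals mark the only match to TGACGTCA, a palindrome and so the same on both strands, which begins 143 bases before the start. This motif occurs in 1.55% of 32851 such promoters.
Dusp1: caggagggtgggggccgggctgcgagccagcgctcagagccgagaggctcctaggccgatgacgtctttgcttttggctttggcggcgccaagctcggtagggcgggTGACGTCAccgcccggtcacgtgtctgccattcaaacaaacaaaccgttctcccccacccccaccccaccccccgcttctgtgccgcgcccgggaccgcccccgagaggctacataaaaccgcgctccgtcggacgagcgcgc

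**Figure D3:**
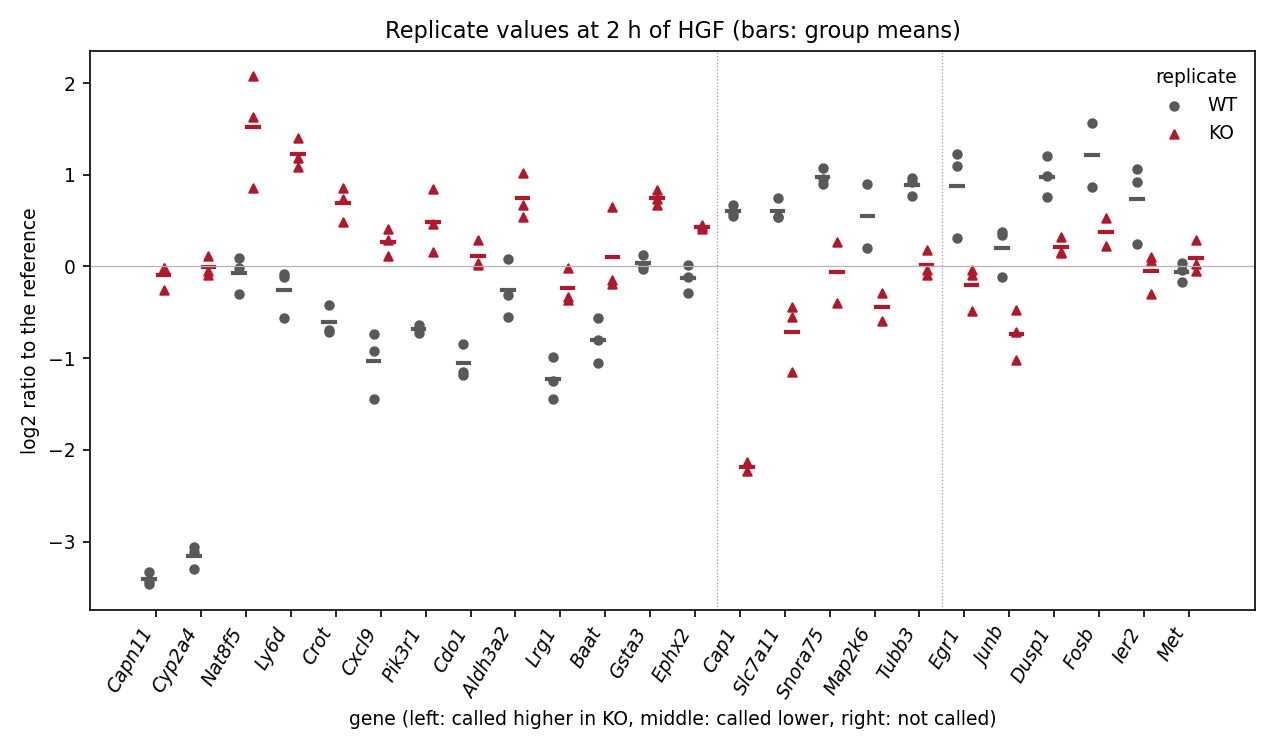
Log2 ratios of the single replicates at 2 h (grey circles WT, red triangles KO) with group means (bars) for 24 genes, those called higher in KO on the left, those called lower in the middle and those not called on the right. Replicates of called genes lie apart, and so do those of Egr1, Junb, Dusp1, Fosb and Ier2, which did not pass.

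On the list of ribosome biogenesis and translation factors no measured gene was called (0 of 33). Of these 33, KO lay wholly below WT for 13 (39.4%, beside 11.5% of all genes) and wholly above for none. The median difference was -0.15, at -0.14 on Cy5 and -0.09 on Cy3 arrays, and it was 0.05 untreated and -0.13 at 0.5 h. Nop2, a methyltransferase of ribosomal RNA, was at 0.04, 0.18 and -0.31 in KO and at 0.64, 0.42 and 0.47 in WT (-0.54 ± 0.16, adjusted p = 0.169). Nop14, which helps process the small subunit, differed by -0.46 ± 0.15 (adjusted p = 0.24). Among 41 measured ribosomal protein genes, by contrast, KO lay below WT for 2 (4.88%) and above for none.

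Probes for 3 small nucleolar RNAs were called lower. Such RNAs guide the chemical modification of ribosomal RNA and lie within introns of host genes, so an array probe may read the host transcript, and which transcript these probes read was not tested. Snora75 was at 0.27 and -0.39 in KO (replicate 2 had no value on both arrays) and at 0.90, 1.07 and 0.95 in WT (-1.04 ± 0.16, adjusted p = 0.00195). Snora81 was at -0.01, 0.07 and -0.16 in KO and 0.71, 1.01 and 1.21 in WT (-1.01 ± 0.22, adjusted p = 0.0474, leave-out maximum 0.186). Snora41 was at 0.22, 0.02 and -0.24 in KO and 0.82, 1.03 and 0.77 in WT (-0.88 ± 0.17, adjusted p = 0.0162, leave-out maximum 0.128). In each case KO lay near the pool and WT above it.

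Slc7a11, the light chain of the cystine and glutamate exchanger that feeds glutathione synthesis, was the second lowest gene. Its log2 ratios were -0.44, -0.55 and -1.15 in KO and 0.54, 0.54 and 0.75 in WT (-1.32 ± 0.29, adjusted p = 0.049, leave-out maximum 0.217). KO lay below WT in all 3 replicates, and the difference was -0.98 untreated, -0.18 at 0.5 h, -1.35 at 12 h and -0.50 at 24 h (adjusted p = 0.44). Slc7a11 was the only call among 27 measured ATF4 and amino acid stress genes, beside 0.105% of all genes called lower. Of the 27, 6 lay wholly below WT (22.2%, beside 11.5% of all genes) and 2 above (7.41%, beside 15.9%). The serine synthesis enzymes Phgdh (-0.57 ± 0.19, adjusted p = 0.282) and Psat1 (-0.41 ± 0.17, adjusted p = 0.497) were among the 6 and did not pass. Of 34 antioxidant and glutathione genes, 1 was lower, again Slc7a11, and none was higher. KO lay wholly above WT for 11 (32.4%, beside 15.9%) and below for 2 (5.88%, beside 11.5%). Among the 11 were Nqo1 (0.50 ± 0.17, adjusted p = 0.339) and the regulator Nfe2l2 (0.51 ± 0.18, adjusted p = 0.364). No ER chaperone was called (0 of 26), with 7 wholly below WT (26.9%, beside 11.5%) and 4 above (15.4%, beside 15.9%).

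The promoter of Slc7a11 is shown because the gene is a textbook target of ATF4, which binds amino acid response elements. The 250 bases before its start lie at chr3:50443614-50443863, minus strand (RefSeq, GRCm38.p6). Capitals mark 2 matches to TGATGNAA, searched on both strands, 1 in each orientation and starting 66 and 47 bases before the start. Of 32851 promoters, 3.45% hold the motif.
Slc7a11: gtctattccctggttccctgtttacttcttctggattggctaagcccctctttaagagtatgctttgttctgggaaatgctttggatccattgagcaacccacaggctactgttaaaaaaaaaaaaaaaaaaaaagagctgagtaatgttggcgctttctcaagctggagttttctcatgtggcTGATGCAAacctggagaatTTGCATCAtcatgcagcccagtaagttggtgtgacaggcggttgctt

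The other genes lower in KO are given singly. Tubb3, a beta-tubulin typical of neurons, was at -0.03, -0.10 and 0.18 in KO and 0.77, 0.97 and 0.92 in WT (-0.87 ± 0.14, adjusted p = 0.00248). It was the only call among 50 genes of tubulin, actin and motility, beside 0.105% of all genes called lower and 0.347% higher. The median difference of this list was -0.001. KO lay wholly above WT for 10 of the 50 and below for 7, beside 15.9% and 11.5% of all genes. Mid1, a microtubule-bound ubiquitin ligase, differed by -0.90 ± 0.17 (adjusted p = 0.0124, leave-out maximum 0.147), with WT at 1.20, 1.62 and 0.93 and KO at 0.52, -0.02 and 0.55. A second Mid1 probe gave -0.83 ± 0.19 and did not pass (adjusted p = 0.0531). Map2k6, a kinase that activates p38, rested on few values, -0.29 and -0.60 in KO and 0.90 and 0.20 in WT. Its difference was -0.99 ± 0.21 (adjusted p = 0.0463, leave-out maximum 0.062), at -0.18 on Cy5 and -1.52 on Cy3 arrays. Both leave-out fits that could test Map2k6 dropped a replicate with no value for it, so its difference could not change. Bbs10, a chaperonin-like protein needed for cilia, was at -0.82, -1.04 and -1.01 in KO and at -0.23, 0.01 and 0.18 in WT (-0.94 ± 0.15, adjusted p = 0.00152). Fgd6, an exchange factor for the small GTPase Cdc42, differed by -0.73 ± 0.15 (adjusted p = 0.0335, leave-out maximum 0.136). The uncharacterised 5730405O15Rik (-1.03 ± 0.14, n = 2 and 3, adjusted p = 0.000894), 4930484H19Rik (-0.67 ± 0.13, adjusted p = 0.0104, leave-out maximum 0.0918) and 2600014E21Rik (-0.59 ± 0.13, adjusted p = 0.0488, leave-out maximum 0.179) were also lower.

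Enzymes that conjugate drugs and toxins were the list with most calls. Of 41 measured members, 5 were higher in KO and none lower, beside 0.347% and 0.105% of all genes. KO lay wholly above WT for 15 (36.6%, beside 15.9% of all genes) and below for none (beside 11.5%), with a median difference of 0.19. That median was already 0.24 untreated and 0.24 at 0.5 h. The list includes glutathione S-transferases, which couple glutathione to reactive compounds. Gstm6 was at 0.76, 0.99 and 0.58 in KO and at -0.34, -0.03 and -0.20 in WT (0.97 ± 0.14, adjusted p = 0.00125). Gsta3 was at 0.67, 0.83 and 0.73 in KO and at 0.00, -0.03 and 0.13 in WT (0.71 ± 0.12, adjusted p = 0.00266). Gstm2 differed by 0.73 ± 0.16 (adjusted p = 0.0497, leave-out maximum 0.26). Transferases of a family are close in sequence, so signal can be shared among their probes. The KO values of Gsta3 overlapped those of untreated KO cells (0.71, 0.65 and 0.77), while the WT values lay below those of untreated WT (0.44, 0.43 and 0.73). The Gsta3 difference was 1.09 at 12 h and 2.18 at 24 h. Nat8f5, of the Nat8 acetyltransferase family, was at 2.08, 0.86 and 1.63 in KO and at -0.02, -0.30 and 0.09 in WT (1.60 ± 0.24, adjusted p = 0.00134), at 0.83 on Cy5 and 2.36 on Cy3 arrays. Its difference was 1.04 untreated (adjusted p = 0.172) and 1.52 at 0.5 h (adjusted p = 0.00133). Ephx2, the soluble epoxide hydrolase, differed by 0.56 ± 0.11 (adjusted p = 0.0138, leave-out maximum 0.115), at 0.10 on Cy5 and 1.01 on Cy3 arrays.

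The Gsta3 promoter is shown because alpha-class transferases are known targets of the antioxidant response element. The 250 bases before the start lie at chr1:21240335-21240584, plus strand (RefSeq, GRCm38.p6). Capitals mark the only match to the core TGACNNNGC, searched on both strands, which begins 121 bases before the start. The motif is common, with a match in 10.2% of 32851 promoters.
Gsta3: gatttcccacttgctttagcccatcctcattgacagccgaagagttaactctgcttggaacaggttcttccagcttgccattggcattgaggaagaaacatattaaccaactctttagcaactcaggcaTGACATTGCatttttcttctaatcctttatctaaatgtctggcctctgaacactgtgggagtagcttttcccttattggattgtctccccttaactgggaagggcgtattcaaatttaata

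Of 38 measured cytochrome P450 genes, 2 were higher (Cyp2a4 and Cyp27a1) and none lower, beside 0.347% and 0.105% of all genes. KO lay wholly above WT for 13 (34.2%, beside 15.9%) and below for 1 (2.63%, beside 11.5%). Cyp27a1, the mitochondrial sterol 27-hydroxylase that opens the acidic route to bile acids, was at 0.18, 0.05 and -0.38 in KO and at -0.87, -1.21 and -0.61 in WT (0.85 ± 0.17, adjusted p = 0.0248, leave-out maximum 0.202). Baat, which couples bile acids to glycine or taurine, differed by 0.91 ± 0.18 (adjusted p = 0.0166, leave-out maximum 0.152). Its KO values were -0.14, -0.19 and 0.65, and its WT values -0.56, -1.05 and -0.80. Cyp27a1 and Baat were the 2 calls among 21 bile acid genes, of which 7 lay wholly above WT (33.3%) and 1 below (4.76%). Cyp2c37 (0.88 ± 0.28, adjusted p = 0.227) and Cyp2d9 (0.45 ± 0.16, adjusted p = 0.324) had separate groups and did not pass.

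Among 30 genes of retinol and aldehyde metabolism 2 were higher and none lower, beside 0.347% and 0.105% of all genes. KO lay wholly above WT for 12 (40%, beside 15.9%) and below for 2 (6.67%, beside 11.5%). The median difference of the list was 0.176 at 2 h, beside 0.195 untreated and 0.013 at 0.5 h. Aldh3a2, which oxidises long-chain fatty aldehydes, was at 0.67, 0.54 and 1.01 in KO and at 0.08, -0.55 and -0.31 in WT (1.00 ± 0.19, adjusted p = 0.0224, leave-out maximum 0.167). It differed by 0.10 untreated, -0.08 at 0.5 h and -0.10 at 12 h. Aldh1a7 was at 1.41, 0.73 and 1.33 in KO and at 0.52, 0.23 and 0.32 in WT (0.80 ± 0.17, adjusted p = 0.0427, leave-out maximum 0.202). Aldh1a1, its close relative that makes retinoic acid, was at 1.99, 1.68 and 1.02 in KO and at 0.84, 0.39 and 0.50 in WT (0.98 ± 0.24, adjusted p = 0.0823). For both genes the 2 h difference was the smallest of the 5 times, beside 0.99 to 2.16 for Aldh1a7 and 1.33 to 2.62 for Aldh1a1. Array spread also differed between the times, and its part in this was not tested.

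Fatty acid oxidation genes had the largest share of members with KO wholly above WT, 18 of 35 (51.4%, beside 15.9% of all genes), and none wholly below (beside 11.5%). Of these genes 31 had a positive difference, with a median of 0.23, at 0.15 on Cy5 and 0.32 on Cy3 arrays. The median was 0.09 untreated and 0.12 at 0.5 h. The only call, 1 of 35 beside 0.347% of all genes, was Crot, which moves medium-chain acyl groups from peroxisomes onto carnitine. Crot was at 0.85, 0.48 and 0.74 in KO and at -0.42, -0.71 and -0.69 in WT (1.30 ± 0.19, adjusted p = 0.00125), with a difference of 0.35 untreated and 0.40 at 0.5 h. The peroxisomal and mitochondrial isomerase Ech1 (0.67 ± 0.21, adjusted p = 0.227), the reductase Decr1 (0.57 ± 0.15, adjusted p = 0.0995) and the electron carrier Etfb (0.42 ± 0.15, adjusted p = 0.351) had separate groups without passing. Vnn1, a pantetheinase known as a target of the fatty acid receptor PPAR alpha, was at 0.60, 0.40 and 0.34 in KO and -0.12, -0.48 and -0.40 in WT (0.78 ± 0.18, adjusted p = 0.0531). Outside the list, Creb3l3, a liver transcription factor of lipid metabolism and fasting, had the smallest difference of any called probe (0.47 ± 0.11, adjusted p = 0.0497, leave-out maximum 0.253).

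No gene of the mitochondrial respiratory chain was called (0 of 43), though 37 had a positive difference, beside 6450 of all 12375 genes. KO lay wholly above WT for 17 (39.5%, beside 15.9% of all genes) and below for none (beside 11.5%). Sdha, a subunit of succinate dehydrogenase, was at -0.19, 0.06 and 0.11 in KO and at -0.88, -0.57 and -0.79 in WT (0.74 ± 0.22, adjusted p = 0.179). Mpc1, a member of no list, which forms the carrier that brings pyruvate into mitochondria, was at 0.31, 0.51 and 0.67 in KO and -0.46, -0.58 and -0.32 in WT (0.95 ± 0.15, adjusted p = 0.0015). Among 25 genes of glycolysis, gluconeogenesis and glycogen none was called. KO lay wholly above WT for 11 (44.0%, beside 15.9%) and below for 1 (4.0%, beside 11.5%). The pyruvate kinase Pklr differed by 1.23 ± 0.32 (adjusted p = 0.109) and the fructokinase Khk by 0.80 ± 0.19 (adjusted p = 0.0763).

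In amino acid breakdown 1 of 33 measured genes was called higher, beside 0.347% of all genes, and none lower. This was Hgd, which opens the ring of homogentisate on the tyrosine route, at 0.53, 0.52 and 0.50 in KO and -0.35, -0.33 and -0.15 in WT (0.79 ± 0.18, adjusted p = 0.0474, leave-out maximum 0.188). A second Hgd probe gave 0.59 ± 0.15 (adjusted p = 0.106). Outside this list, Cdo1, which oxidises cysteine on the way to taurine, was at 0.03, 0.29 and 0.01 in KO and at -0.84, -1.18 and -1.15 in WT (1.17 ± 0.22, adjusted p = 0.0125, leave-out maximum 0.0909). Of the 33 genes, 10 lay wholly above WT (30.3%, beside 15.9% of all genes) and 3 below (9.09%, beside 11.5%).

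Among complement and coagulation genes the median of the group means was -0.41 in WT and -0.13 in KO, and among acute phase genes -0.40 and -0.11. Of 29 complement and coagulation genes 2 were higher and none lower (beside 0.347% and 0.105% of all genes), 14 lay wholly above WT (48.3%, beside 15.9%) and 1 below (3.45%, beside 11.5%), and the median difference was 0.25. Untreated and at 0.5 h that median was -0.02 and -0.13. Coagulation factor F10 was at -0.15, -0.02 and 0.13 in KO and -0.74, -0.59 and -0.85 in WT (0.71 ± 0.15, adjusted p = 0.0362, leave-out maximum 0.161). Mbl1, a mannose-binding lectin that starts complement, was at 0.48, 0.13 and 0.37 in KO and -0.42, -0.48 and -0.30 in WT (0.72 ± 0.16, adjusted p = 0.0429, leave-out maximum 0.187). Factors F5, F9 and F12 (0.56 ± 0.20, 0.56 ± 0.17 and 0.39 ± 0.16) had separate groups and did not pass. Of 30 acute phase genes 1 was higher, 12 lay wholly above WT (40%) and none below. The called gene was Lrg1, a leucine-rich glycoprotein of inflammation, at -0.33, -0.01 and -0.37 in KO and -0.99, -1.44 and -1.25 in WT (0.99 ± 0.22, adjusted p = 0.0463, leave-out maximum 0.242). Lbp, which presents bacterial lipopolysaccharide, differed by 0.75 ± 0.19 (adjusted p = 0.0904) and the protease inhibitor Serpina3n by 0.91 ± 0.29 (adjusted p = 0.261).

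Cxcl9, an interferon-induced chemokine that attracts T cells, was the only call among 32 chemokine and NF-kB genes, beside 0.347% of all genes called higher. KO lay wholly above WT for 11 of the 32 (34.4%, beside 15.9% of all genes) and below for 3 (9.38%, beside 11.5%). It was at 0.11, 0.29 and 0.41 in KO and at -0.92, -0.73 and -1.44 in WT (1.30 ± 0.25, adjusted p = 0.0162, leave-out maximum 0.13). KO replicates of Cxcl9 at 2 h lay above those of KO at 0.5 h (-0.58, -1.06 and -0.73). Untreated KO was at -1.11, -0.78 and 0.35, so its replicate 3 lay within the KO range at 2 h. None of 34 interferon response and antigen presentation genes was called, with 8 wholly above WT (23.5%) and 2 below (5.88%).

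No marker of another liver cell type was called, beside 0.347% of all genes called higher and 0.105% lower. Over 7 marker lists with 8 to 20 measured genes (Kupffer cells, endothelium, stellate cells, bile duct, lymphocytes, red blood cells and neutrophils) the median differences ran from -0.06 to 0.11, beside 0.01 over all genes. The share of a list with KO wholly above WT ran from 0% (red blood cells) to 25.0% (stellate cells), beside 15.9% of all genes. The share wholly below ran from 0% (stellate cells, bile duct and red blood cells) to 27.3% (neutrophils), beside 11.5%. Single markers had separate groups, such as the macrophage receptor Marco (0.49 ± 0.15, adjusted p = 0.219) and the immunoglobulin kappa probe Igkc (0.67 ± 0.15, adjusted p = 0.0564). A second Igkc probe gave -0.05 ± 0.23. Ratios to a pool do not show whether a marker is near 0, and the part of other cells in the differences was not tested. In such bulk cultures fewer cells of a type and less RNA per cell cannot be told apart.

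The remaining genes with high differences share no list. Ly6d, a membrane-anchored protein of the Ly6 family, was at 1.08, 1.40 and 1.18 in KO and at -0.12, -0.08 and -0.56 in WT (1.48 ± 0.25, adjusted p = 0.00355), and its difference was 1.03 untreated. Lamc3, a laminin chain of basement membranes, was at 1.06 and 1.18 in KO and -0.12 and -0.06 in WT (1.21 ± 0.16, adjusted p = 0.000756), and in KO it was high at 2 h but not at 0.5 h (-0.21, 0.18 and -0.15). Tinag, a basement membrane protein of kidney tubules, differed by 1.02 ± 0.15 (adjusted p = 0.00125) with KO at 0.68, 0.72 and 0.70 and WT at -0.43, -0.27 and -0.27. Tjp3, a scaffold of tight junctions, differed by 1.16 ± 0.20 (adjusted p = 0.00815, leave-out maximum 0.068). Foxd3, a transcription factor of pluripotent and neural crest cells, differed by 1.16 ± 0.21 (adjusted p = 0.00678, leave-out maximum 0.0685). Duoxa2, the maturation factor of the oxidase Duox2, differed by 1.08 ± 0.19 (adjusted p = 0.00731, leave-out maximum 0.0571). Gas2, a growth-arrest protein that binds actin, differed by 0.96 ± 0.15 (n = 3 and 2, adjusted p = 0.00234). The guidance receptor Robo1 was at 0.62, 0.83 and 0.72 in KO and -0.12, -0.17 and -0.16 in WT (0.88 ± 0.20, adjusted p = 0.0497, leave-out maximum 0.187). The olfactory receptor pseudogene Olfr29-ps1 (1.06 ± 0.18, adjusted p = 0.00434) completes the 20 genes with the largest positive differences among those called. The other called genes with positive differences, not described above, were Hcfc1, Pop4, Kcna1, Dpp4, Gp2, Fshb, Gtse1, Abca3, Klhl24, Rsu1, 1810007C17Rik, Cux1 and Sema4g, with differences from 0.48 (Sema4g) to 0.82 (Hcfc1). Of these 13, only Pop4 and Fshb stayed called without each replicate in turn. The leave-out maximum was 0.123 for Gtse1, 0.15 for Gp2, 0.163 for 1810007C17Rik, 0.178 for Hcfc1, 0.19 for Rsu1 and 0.209 for Abca3. It was 0.211 for Klhl24, 0.224 for Dpp4, 0.239 for Kcna1, 0.281 for Cux1 and 0.313 for Sema4g. Second probes of Abca3 (0.38), Cux1 (0.14) and Klhl24 (0.11 and 0.12) did not pass.

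Genes near Met on its chromosome, whose strain of origin could follow the floxed allele, were counted as well. Of 88 measured neighbours, up to 50 on each side, 1 was called higher (6530409C15Rik, 0.86 ± 0.14, adjusted p = 0.00266) and none lower, beside 0.347% and 0.105% of all genes. KO lay wholly above WT for 15 (17.0%) and below for 12 (13.6%), near the 15.9% and 11.5% of all genes, and the median difference was 0.02.

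**Figure D4:**
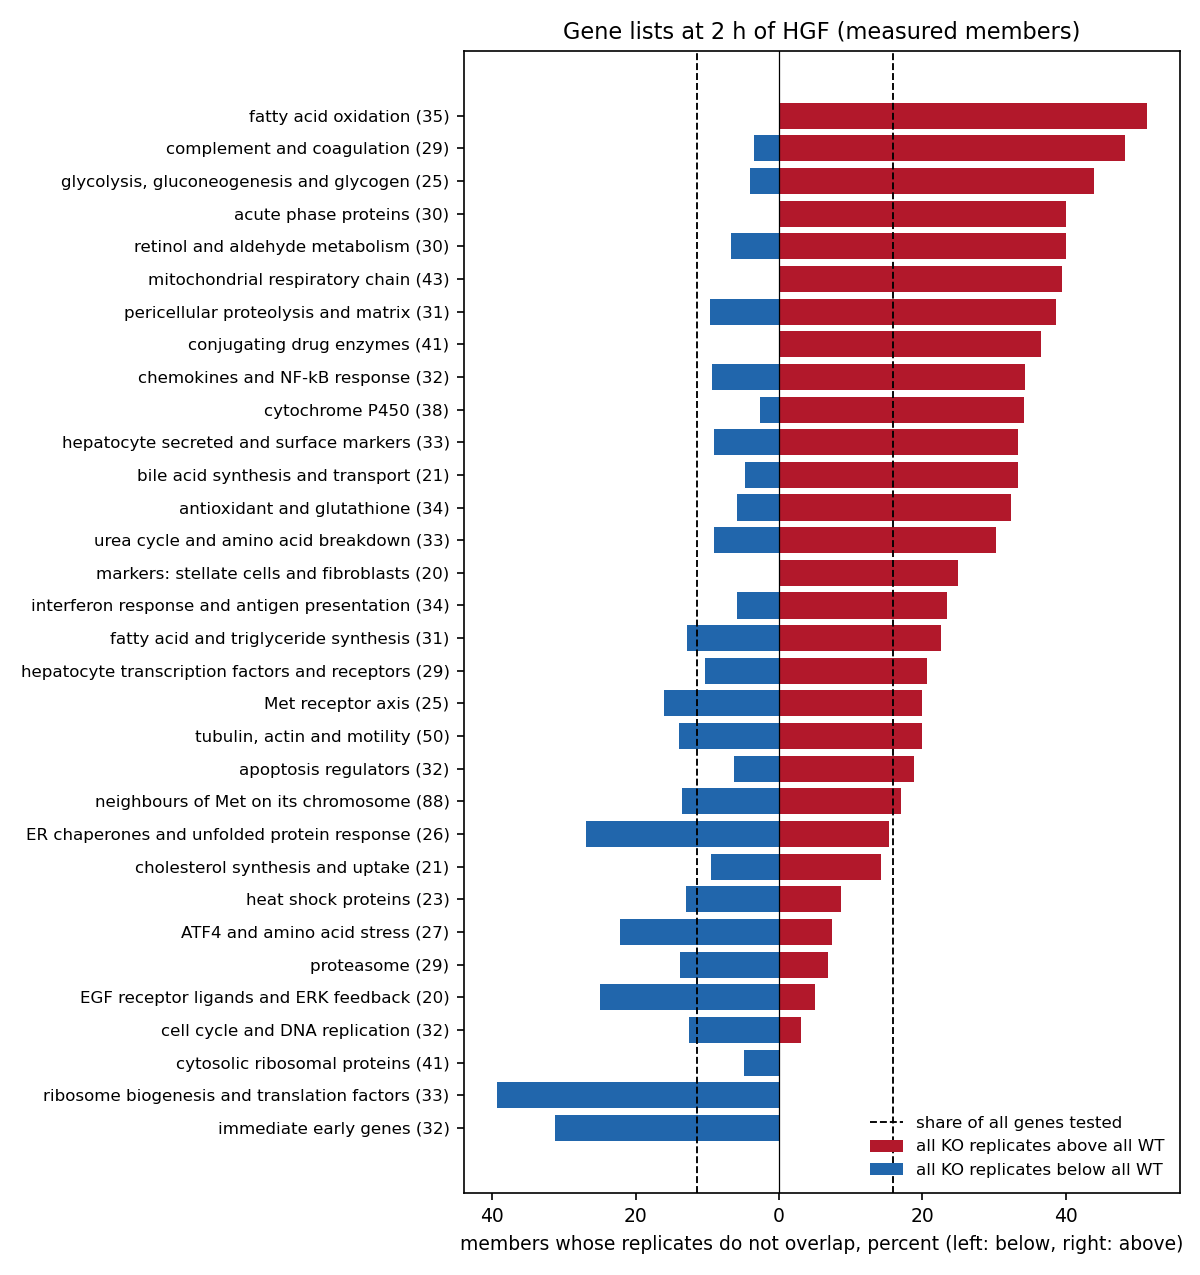
Share of each list's measured members (in parentheses) whose KO replicates all lay above all WT replicates (red, to the right) or below them (blue, to the left) at 2 h of HGF, for 32 lists with at least 20 measured members. Dashed lines mark the shares of all 12375 genes, 15.9% above and 11.5% below; fatty acid oxidation (51.4% above) and ribosome biogenesis (39.4% below) lie at the ends.

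The genotype differences at 2 h were then set against those at neighbouring times to ask which of them differed between times. Of the 65 called probes, 52 had the same sign untreated, but 1 was called there, where 7 of 17368 probes were called (0.0403%). At 0.5 h, 46 of 64 had the same sign and 10 were called in the same direction, beside 4.86% of all probes called in either direction at that time. Of the 65, 25 were also called in the same direction at 12 h and 30 at 24 h, beside 2.82% and 4.15% of all probes called there in either direction. The difference at 2 h minus that untreated passed for 5 of 17368 probes (0.0288%). These were Capn11 (3.47 ± 0.47, adjusted p = 0.00182), Cyp2a4 (3.46 ± 0.50, adjusted p = 0.00182), Prelid2, 1700001D01Rik and the probe with no gene symbol described above. The uncharacterised 1700001D01Rik was high in untreated KO cells (2.98 and 2.09) and near the pool in KO at 2 h (0.06 and 0.02). The difference at 2 h minus that at 0.5 h passed for 75 of 16795 probes (0.447%), 49 with a higher (0.292%) and 26 with a lower value at 2 h (0.155%). Of the 65 probes called at 2 h, 62 could be tested for this and 13 passed. Aside from the genes above they included Tjp3 (1.36), Foxd3 (1.45), Olfr29-ps1 (1.28), Bbs10 (-0.91) and Snora75 (-1.02). The count of 75 became 42, 23 and 18 without KO replicate 1, 2 or 3 at 2 h and 11, 17 and 20 without WT replicate 1, 2 or 3. The count of 5 against untreated cells became 3 without KO replicate 2 and 4 without any of the others. Both time contrasts share the 2 h replicates, and all samples of a time were treated alike, so HGF and hours in culture cannot be told apart in them. Array spread differed between times as well. With arrays scaled to a common spread, 126 probes passed against untreated cells and 974 against 0.5 h.

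**Figure D5:**
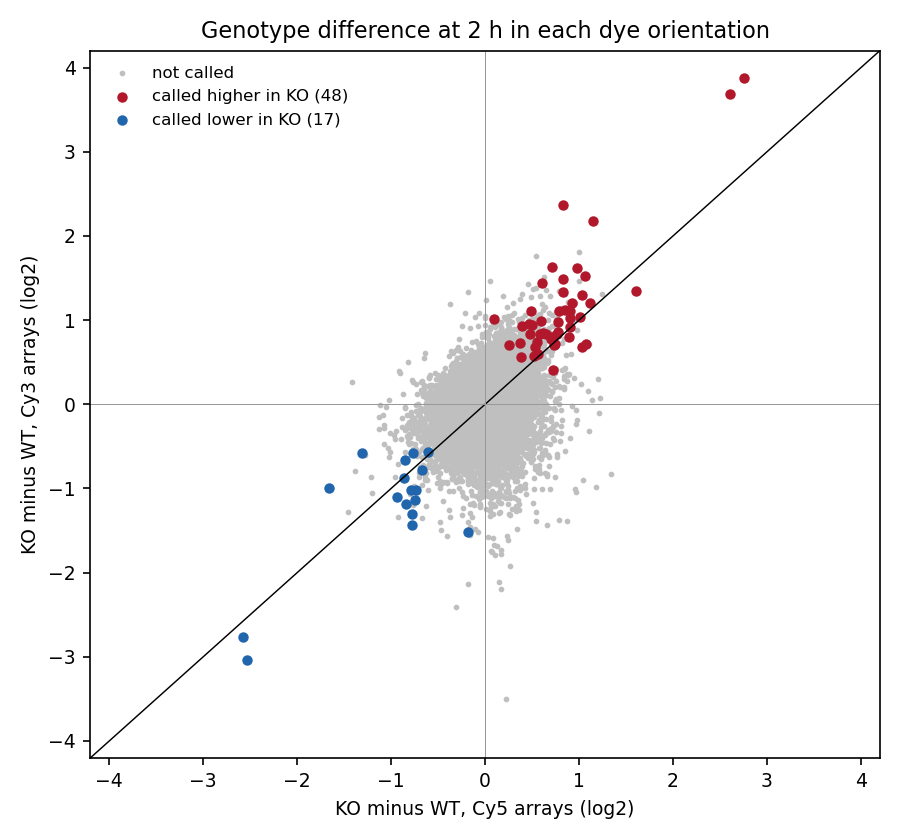
KO minus WT difference at 2 h on the Cy5 arrays (horizontal) and on the Cy3 arrays (vertical), 1 point per tested probe, with the line of equal values. All 65 called probes, chosen on the mean of both arrays, have the same sign on both. Of these, 41 of the 48 higher and 12 of the 17 lower ones are farther from 0 on the Cy3 arrays.

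The 2 dye orientations gave differences of unequal size. All 65 called probes had the same sign on Cy5 and Cy3 arrays. Calls rest on the mean of both arrays, so the choice of probes favours a shared sign. The sizes were larger on the Cy3 arrays for 41 of the 48 higher and 12 of the 17 lower probes. The Cy5 arrays alone called 4 probes and the Cy3 arrays alone 32. The 2 h groups were the least variable of the series, with residual SDs of 0.167 in WT and 0.169 in KO beside 0.198 to 0.43 in the other groups. A fit that weighted replicates by the spread of their group called 661 probes, 448 higher and 213 lower, and all 65 were among them. Under these weights more listed genes were called: 6 of 35 fatty acid oxidation genes, 6 of 30 acute phase genes and 7 of 30 retinol and aldehyde genes were higher, beside 2.85% of all genes. In the other direction 3 of 33 ribosome biogenesis and translation factors, 2 of 32 immediate early genes, 2 of 27 ATF4 and amino acid stress genes and 1 of 30 retinol and aldehyde genes were lower, beside 1.25% of all genes. Among the markers of other cell types, 2 of 16 Kupffer cell, 1 of 17 endothelial and 3 of 18 lymphocyte markers were higher and 1 lymphocyte marker lower under these weights.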

How the data were processed

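RNA of cultured mouse hepatocytes was hybridised to 2-colour arrays against pooled wild-type hepatocyte RNA, with dyes exchanged between the 2 arrays of a replicate. The authors deposited log2 ratios per probe, and their log base, numerator, scanner settings and normalization are not given in the sources used here; log2 was read from the range of the values. The median was subtracted from every array, and the mean of both arrays stood for a replicate if both had a value. Testing needed values in 2 or more of the 3 replicates of each 2 h group (18397 of 21997 probes, 83.6%). limma 3.58.1 in R 4.3.3 (statmod 1.5.0) fitted 1 mean per group over all 30 replicates, with moderated two-sided tests, Benjamini-Hochberg adjustment over all tested probes and a threshold of 0.05. Arrays have no read depth, so their number limits the precision; a permutation of 3 against 3 replicates cannot go below p = 0.1, and the exact test was not used for calls.

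Probes were named through the platform annotation with symbols updated from RefSeq. Genes were named by a rule: with 1 symbol, the 20 highest and 20 lowest differences among called probes with separate groups, every called member of 40 gene lists, a panel of Met signalling genes whether called or not, and up to 2 members with the smallest p of each list with no call. Further genes and the unnamed probes were chosen after their values were seen. A gene on several probes was taken from the probe with most replicates measured. The members and lists were chosen with earlier results of these data known. Where nothing says that cultures were independent beyond the labels' mention of 3 mice, p-values measure the spread between these samples. Promoters came from RefSeq (GRCm38.p6), which held 45 of the 57 called genes. Alternatives covered centring, scaling, dyes, filters, group weights, array set, the repeat number and leaving out each replicate. The scripts were tested on simulated data. Repeat numbers did not pair the samples: deviations from the group means correlated at 0.06, 0.06 and -0.03 for numbers 1, 2 and 3.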

Additional observations from a re-analysis of the deposited data

Results flagged for a closer look

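Some genotype differences at 2 h differed from those at another time by limma's test of the difference itself (Benjamini-Hochberg adjusted p under 0.05). Against untreated cells the change in the KO minus WT difference was 3.47 for Capn11, 3.46 for Cyp2a4, -2.0 for Prelid2, -2.87 for 1700001D01Rik and -2.86 for a probe with no gene symbol.

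Against 0.5 h the change was 4.28 for Cyp2a4, 3.54 for Capn11 and -2.06 for Prelid2. It was 1.45 for Foxd3, 1.36 for Tjp3, 1.28 for Olfr29-ps1, 1.25 for the pancreatic glycoprotein gene Gp2, 1.25 for the complement gene C1qb, 1.22 for 6530409C15Rik, 1.22 for the potassium channel gene Kcna1, 0.92 for Gtse1 and 0.90 for the hormone subunit gene Fshb. It was -1.02 for Snora75, -0.91 for Bbs10 and -0.87 for another probe with no gene symbol. C1qb, Prelid2 and 1700001D01Rik were not called at 2 h itself.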

How the results depend on the processing

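The main counts were 65 probes at 2 h, 5 for the 2 h difference minus that untreated and 75 for the 2 h difference minus that at 0.5 h. Scaling each array to a common spread gave 1117, 126 and 974. Single arrays with a dye term gave 173, 12 and 181, and the array set as a term 143, 15 and 189. With only the groups compared the counts were 384, 3 and 2000. Weights by group spread gave 661 at 2 h and 1834 against 0.5 h. The Cy3 arrays alone gave 32, 3 and 510, and the Cy5 arrays alone 4 at 2 h and 3 against 0.5 h. With 1 of the 2 arrays enough, 63 probes passed at 2 h, 47 of them shared with the main fit, and 180 against 0.5 h. Of the 57 called genes, 18 lost the call in that setting. Turning the sign of the Cy5 array of untreated WT replicate 3, whose direction is unsettled, gave 48 at 2 h and 8 against untreated cells. Of these 48, 45 were shared with the main fit. With the sign turned, 17 of the 57 called genes lost the call at 2 h, among them Pik3r1, Cxcl9 and Gstm2. Leaving out 1 replicate gave 29 to 48, 3 to 4 and 11 to 42. The cause of these shifts was not tested beyond what each setting itself changes. No called gene changed direction in any setting run in which it was tested.

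The repeat number as a fixed replicate block called 65 probes at 2 h, 56 of them shared with the fit without it, and the random block 56. The numbers mark different animals and did not pair the samples.

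The array design limits all results: 3 replicates a group, a numerator that is not stated, strain changing with genotype, and array runs that follow the groups.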

Other observations

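Among 7861 probes with values in all 30 replicates, the 3 WT replicates at 2 h lay outside the range of all other 27 replicates for 58 probes, and the 3 KO replicates at 2 h for 29.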
